A study of Mus musculus with 17 samples.

Results

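Neurotensin (gene Nts) and PACAP, the pituitary adenylate cyclase-activating polypeptide (gene Adcyap1), were followed together with a receptor of each, Sort1 for neurotensin and Adcyap1r1 for PACAP. These 4 genes were taken by symbol from the 25198 genes of the deposited count table. Nts and Adcyap1 were chosen by their read counts, which were lower after the inhibitor in these same libraries, so their treatment difference is a description and carries no test. The receptors were added for their ligands.

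Expression was measured by bulk RNA-seq in antral follicles of CD1 mice. Follicles from mice 16 days old had been grown for 8 days in eIVFG, an encapsulated culture of whole follicles, and each sample pooled 3 follicles. The 6 Tyrphostin libraries came from follicles given 10 µM Tyrphostin-AG1478, a blocker of the EGF receptor kinase, in the solvent DMSO together with hCG (human chorionic gonadotropin, which acts on the LH receptor and starts ovulation) for 4 h. The 11 Control libraries carry the same treatment text in the labels, so whether Control follicles received hCG or DMSO is not given in the sources used here. Each library carries a batch number in the labels. Control 1 to 6 and Tyrphostin 1 to 3 are of batch 1, Control 7 to 11 and Tyrphostin 4 to 6 of batch 2. No label says that libraries come from separate animals or cultures, so p-values measure the spread between these libraries, which may be partly technical.

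Neurotensin is cut from a precursor that also holds neuromedin N. It acts on the G protein-coupled receptors Ntsr1 and Ntsr2, and it is bound by sortilin, the Sort1 product, a sorting receptor of the Vps10p family. PACAP belongs to the VIP and glucagon family of peptides. Its own receptor, PAC1 (Adcyap1r1), and the receptors it shares with VIP (Vipr1 and Vipr2) couple to the stimulatory G protein and raise cyclic AMP. Outside the nervous system, both precursors are known as genes that granulosa cells of preovulatory follicles switch on after the LH surge, and induction of Adcyap1 there is known to need the progesterone receptor.

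On GRCm38 in the GENCODE M21 annotation, Nts lies at chr10:102481756-102490486 on the minus strand with 4 exons. Adcyap1 lies at chr17:93199017-93206537 on the plus strand with 5 merged exons, Adcyap1r1 at chr6:55451978-55501451 on the plus strand with 18, and Sort1 at chr3:108284082-108361511 on the plus strand with 20. No other annotated gene overlaps Nts, Adcyap1 or Adcyap1r1. Sort1 overlaps an antisense gene and 1 further unverified transcript, and without a stated strand setting their reads cannot be told apart from its own.

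The sequences before the start sites of the neuropeptide genes are shown because both genes were lower in the same libraries. They are RefSeq windows of GRCm38.p6, printed 5′ to 3′ on the gene's strand, and capitals mark the matches to the AP-1 motif TGANTCA, the cyclic AMP response element (CRE) motif TGACNTCA and its shorter form TGACG on either strand. The Nts stretch is chr10:102490487-102490668 on the minus strand, 182 bases that end 69 bases before the RefSeq start because the GENCODE start lies 68 bases upstream of it. The Adcyap1 stretch is chr17:93198767-93199016 on the plus strand, 250 bases up to a start that both annotations share.
Nts: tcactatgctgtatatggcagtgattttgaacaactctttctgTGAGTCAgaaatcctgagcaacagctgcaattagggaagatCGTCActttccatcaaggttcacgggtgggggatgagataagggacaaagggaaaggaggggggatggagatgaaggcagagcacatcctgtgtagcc
Adcyap1: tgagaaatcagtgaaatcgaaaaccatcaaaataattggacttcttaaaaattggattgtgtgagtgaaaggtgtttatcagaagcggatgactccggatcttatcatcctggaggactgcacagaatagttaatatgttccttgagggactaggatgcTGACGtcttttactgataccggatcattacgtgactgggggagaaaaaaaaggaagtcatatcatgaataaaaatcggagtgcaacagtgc

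The Nts window held 1 AP-1 match, which begins 207 bases before the RefSeq start. AP-1 matches were present in 7.79% of the 32544 distinct promoter windows of 300 bases (250 before and 50 after the start). It also held 1 TGACG match on the opposite strand, 166 bases before the start, and 1 match to TGACNTCA, 67 bases before it and so just inside the GENCODE transcript. Of all windows, 20.9% held TGACG and 8.62% held TGACNTCA. The Adcyap1 window held 1 TGACG match, 91 bases before the start, and no match to TGANTCA or TGACNTCA. A second RefSeq start of Adcyap1 lies 3′ of the printed stretch, at chromosome 17 position 93199168, and its window holds the same TGACG match and a TATAAA match 58 bases before that start. The Adcyap1r1 window, with 67.3% G and C, held no match to these motifs, to TATAAA, to the C/EBP motif TTGCNNAA or to the progesterone receptor motif TGTTCT. The Nts window and both Adcyap1 windows also held no match to TTGCNNAA or TGTTCT. The Nts window and the first Adcyap1 window held no TATAAA. A TGACNTCA match with G at its open position would also count as TGACG. A match describes the letters of a window and is no evidence of binding.

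Libraries held from 1820545 (Control 6) to 8291024 counts (Control 8). Values are given as CPM, counts scaled to a common library size after TMM normalisation, and 3 counts, taken as the floor of detection, corresponded to 0.336 to 1.64 CPM. These floors cover counting error only. In other genes, Control 7 and Tyrphostin 5 stood apart. The mitochondrial genome's own genes took 0.175% of counts in Control 7. In batch 2 they took 0.781%, 1.32% and 0.797% in Tyrphostin 4, 5 and 6, below the 1.74% to 1.94% of Control 8 to 11, while in batch 1 the ranges overlapped (1.55% to 2.50% in Tyrphostin and 1.86% to 2.83% in Control). The part of this share in the results was not tested. The 9 theca and stroma markers summed to 3090 CPM in Tyrphostin 5, against at most 2163 CPM elsewhere. The 10 granulosa markers summed to 62493 to 81282 CPM in Control and 52732 to 78216 CPM in Tyrphostin libraries. Most of this sum came from Inha and Inhba, with Control means of 44568 and 24329 CPM. Foxl2 and Amh, with Control means of 0.592 and 0.0194 CPM, were too low to be tested. Of the 8 markers tested, 4 were called higher after Tyrphostin, against 4.35% of all genes tested. These were Hsd17b1, Cyp19a1, Nr5a2 and Fshr, at log2 fold changes of 2.64 ± 0.35, 2.35 ± 0.22, 2.18 ± 0.16 and 0.83 ± 0.25 (SE). Inha, Inhba, Nr5a1 and Amhr2 were not called, at -0.05 ± 0.15, -0.07 ± 0.15, -0.11 ± 0.15 and 0.49 ± 0.34 (SE).

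Neurotensin mRNA was abundant in Control follicles and low in Tyrphostin follicles. Across the 11 Control libraries Nts ran from 76.6 through a median of 718 to 2351 CPM. Across the 6 Tyrphostin libraries it ran from 5.66 through a median of 59.5 to 127 CPM. The groups overlapped when batches were pooled, with 3 of 6 Tyrphostin libraries below every Control library. Within a batch they did not overlap.

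In batch 1 Nts was 621 to 2351 CPM in the 6 Control libraries, and 87.9, 127 and 102 CPM in Tyrphostin 1, 2 and 3. In batch 2 it was 76.6 to 718 CPM in the 5 Control libraries, and 26.6, 5.66 and 31.0 CPM in Tyrphostin 4, 5 and 6. The batch 2 Tyrphostin libraries thus lay below those of batch 1, as most Control libraries did. With batch as a term the log2 fold change was -3.54 ± 0.54 (SE), which is 11.6-fold lower and the fourth lowest value of the 9603 genes tested. It was -3.52 ± 0.77 within batch 1 and -3.56 ± 0.79 within batch 2. Since Nts was picked for its fall, nothing is read from its rank.

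PACAP mRNA was low in Tyrphostin follicles too, and its groups did not overlap. Adcyap1 ran from 29.6 through a median of 91.4 to 465 CPM in Control libraries and from 4.68 through 13.8 to 19.4 CPM in Tyrphostin libraries. All 6 Tyrphostin libraries were below all 11 Control libraries, a pattern found for 96 of the genes tested (1%). Since Adcyap1 was picked for its low values here, nothing is read from that share.

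In batch 1 Adcyap1 was 15.5, 12.9 and 4.68 CPM in Tyrphostin 1, 2 and 3 against 76.1 to 465 CPM in Control, and in batch 2 it was 14.7, 8.36 and 19.4 CPM in Tyrphostin 4, 5 and 6 against 29.6 to 358 CPM. The Tyrphostin libraries of the batches overlapped. The log2 fold change was -3.57 ± 0.64 (SE), 11.9-fold lower and the third lowest of all genes tested. It was -4.02 ± 0.93 within batch 1 and -3.13 ± 0.90 within batch 2. Nothing is read from the rank of Adcyap1 either, as it was picked for its fall.

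**Figure D1:**
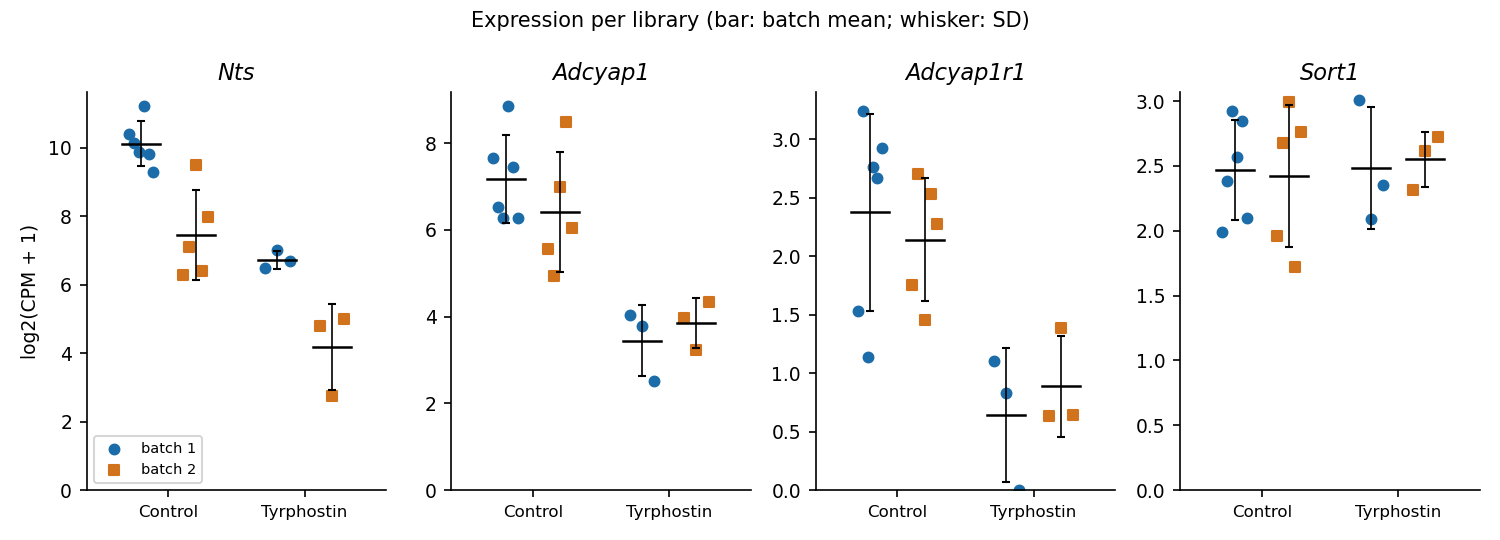
Expression of the 4 genes in each library as log2(CPM + 1), by group and batch (circles for batch 1, squares for batch 2); the black bar is the batch mean and the whisker its SD. Nts, Adcyap1 and Adcyap1r1 sit lower in the Tyrphostin libraries of both batches, Nts also sits lower in batch 2 in both groups, and Sort1 overlaps throughout.

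The PACAP receptor fell as well. Adcyap1r1 ran from 1.2 through a median of 4.79 to 8.45 CPM in Control libraries and from 0 through 0.668 to 1.62 CPM in Tyrphostin libraries. In counts this was 205 over the 11 Control libraries and 26 over the 6 Tyrphostin libraries, with 0 in Tyrphostin 3, where the floor was 0.585 CPM. By library it was 1.15, 0.777 and 0 CPM in Tyrphostin 1, 2 and 3 of batch 1 and 0.549, 1.62 and 0.56 CPM in Tyrphostin 4, 5 and 6 of batch 2. Of the Tyrphostin libraries 5 of 6 lay below every Control library, and 10 of 11 Control libraries lay above every Tyrphostin library.

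The log2 fold change of Adcyap1r1 was -2.48 (SE 0.49, edgeR quasi-likelihood test, adjusted p = 0.00155), 5.59-fold lower, with a 95% interval from -3.54 to -1.43. The call stands among 600 genes called lower, 6.25% of the 9603 tested, 418 called higher, 4.35%, and 1018 called in either direction, 10.6%. No Tyrphostin library reached the count filter for this gene and 7 Control libraries did, so it entered the test only through the group in which it was high. With no filter the log2 fold change was -2.43 (edgeR adjusted p = 3.18e-05). With the filter it was -2.79 ± 0.69 within batch 1 and -2.15 ± 0.70 within batch 2, and the difference between batches, 0.65 ± 1.00, had an unadjusted p of 0.522 (edgeR adjusted p = 1).

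Sortilin mRNA showed no detectable difference. Sort1 ran from 2.3 through a median of 4.93 to 6.95 CPM in Control libraries and from 3.26 through 4.61 to 7.03 CPM in Tyrphostin libraries, and the groups overlapped almost entirely. Its log2 fold change was 0.06 (SE 0.27, adjusted p by edgeR = 0.934), with a 95% interval from -0.52 to 0.63 that leaves room for a change of either sign. It was 0.02 ± 0.38 within batch 1 and 0.09 ± 0.39 within batch 2 (edgeR unadjusted p of the difference 0.91). The sign of this value changed when Control 7, Control 10 or Tyrphostin 1 was left out. With 6 to 49 counts per library, a small change would not be seen at this depth.

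**Figure D2:**
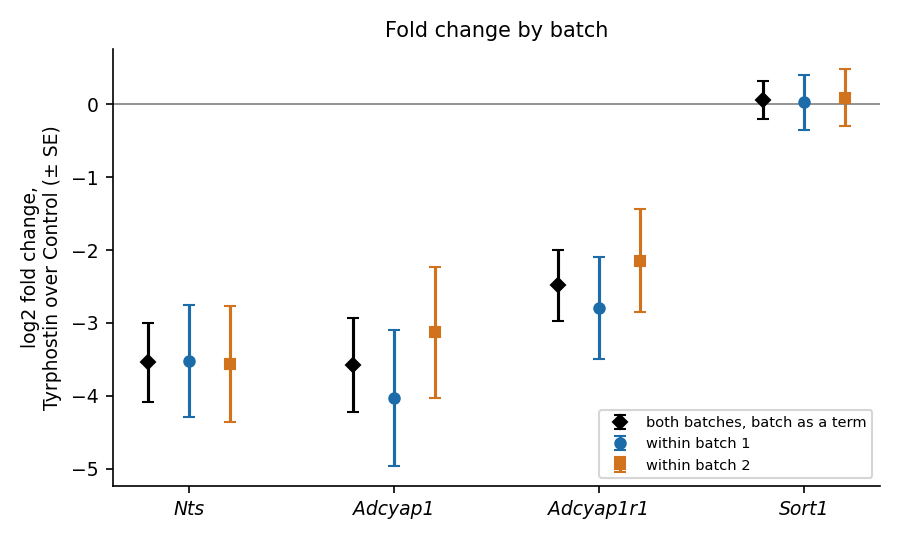
Log2 fold change of Tyrphostin over Control with its SE for each gene, over both batches with batch as a term and within each batch. Nts has nearly the same value in both batches (-3.52 and -3.56), and Sort1 stays near 0.

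Leaving out Control 6 (the shallowest), Control 7 and Tyrphostin 5 together gave log2 fold changes of -3.53 for Nts, -3.69 for Adcyap1, -2.76 for Adcyap1r1 (edgeR adjusted p = 0.00122) and -0.045 for Sort1 (edgeR adjusted p = 0.945).

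Markers of the expanding cumulus were also lower. The 5 (Has2, Tnfaip6, Ptx3, Ptgs2 and Pcsk6) summed to 6480 to 24960 CPM in Control and 971 to 4888 CPM in Tyrphostin libraries, without overlap. Most of this sum came from Ptgs2 and Tnfaip6, with Control means of 7362 and 6420 CPM. Taken singly, 96 of all genes tested (1%) had every Tyrphostin library below every Control library. Of the 5, 4 were called lower by edgeR, against 6.25% of all genes tested, and Pcsk6 was not, with a log2 fold change of -0.71 (SE 0.24, adjusted p by edgeR = 0.0626). Whether their fall has a part in that of Nts, Adcyap1 and Adcyap1r1 was not tested. In bulk follicles fewer cells of a type and less RNA per cell cannot be told apart.

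The other marker lists overlapped between groups. Over all genes tested 10.6% were called by edgeR, which is fewer than 1 gene in lists with 8 or 2 genes tested. A list with 0 called therefore does not show that a cell type was unchanged. The summed level of 9 oocyte markers was 23.7 to 179 CPM in Control and 29.1 to 284 CPM in Tyrphostin libraries, and that of 9 theca and stroma markers was 267 to 2163 CPM and 273 to 3090 CPM, with 0 of 8 tested called by edgeR in either list (1 oocyte marker and 0 theca and stroma markers at an unadjusted p under 0.05, and 1 and 0 called by DESeq2). The 6 endothelial markers summed to 8.75 to 91.7 CPM in Control and 9.33 to 35.3 CPM in Tyrphostin libraries, and the 6 immune markers to 18.7 to 462 CPM and 19.1 to 855 CPM, with 2 of each tested and 0 called by edgeR, DESeq2 or limma-voom (1 endothelial and 0 immune markers at an unadjusted edgeR p under 0.05). The untested endothelial marker Tek, singled out after its values were seen, was above every Control library in 5 of 6 Tyrphostin libraries, at no more than 5 counts in any library. The 8 neuron and neuroendocrine markers summed to 24.7 to 59.5 CPM and 10.6 to 88.4 CPM, and no marker in these 5 lists was at 0 in every library. Only 2 of those 8 passed the filter. Of them Snap25, a membrane fusion protein of regulated secretion, was called lower, with a log2 fold change of -1.81 (SE 0.37, adjusted p by edgeR = 0.00298). Tubb3 went the other way and was not called, at 0.82 ± 0.46 (SE). The part of Snap25-expressing cells in the result was not tested.

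Ligand and receptor levels were set side by side per kilobase of merged exon, since these libraries cover whole transcripts. In Control libraries Nts stood at 622 CPM per kb ± 546 (SD, n = 11) and Adcyap1 at 41.2 ± 36.7 (SD, n = 11). Nts exceeded Adcyap1 in 16 of 17 libraries, Control 10 being the exception. Adcyap1r1, at 0.654 CPM per kb ± 0.35 (SD, n = 11), and Sort1, at 0.618 ± 0.216 (SD, n = 11), did not differ beyond their spread in Control libraries. In Tyrphostin libraries the levels were 50.8 CPM per kb ± 39 for Nts, 3.33 ± 1.4 for Adcyap1, 0.64 ± 0.179 for Sort1 and 0.117 ± 0.0843 for Adcyap1r1 (SD, n = 6 each). There the receptors separated, with Sort1 at 0.431 to 0.929 and Adcyap1r1 at 0 to 0.245 CPM per kb.

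The remaining receptors for these peptides were near the floor. Ntsr1 reached at most 3 counts in any library, with 7 counts over all Control libraries and 0 in every Tyrphostin library, where a count of 0 allows up to 0.412 to 0.809 CPM. Ntsr2 reached at most 8 counts, Vipr1 at most 7 and Vipr2 at most 5. No change in these 4 receptors was detectable at this depth. Of the sortilin family, Sorcs1 was the highest at 3.21 CPM per kb ± 0.795 in the 11 Control libraries and 3.31 ± 0.82 (SD) after Tyrphostin, and its log2 fold change was 0.05 (SE 0.19, adjusted p by edgeR = 0.923). Sorl1 had a log2 fold change of -0.27 ± 0.25 and Sorcs2 of 0.14 ± 0.41 (SE), neither called, and Sorcs3 was under the filter with at most 8 counts. Of the 10 genes in this list 5 were tested, 1 was called lower (Adcyap1r1) and 4 were not called, against 6.25% and 10.6% of all genes tested called lower and called either way. The median log2 fold change of the list was 0.05.

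Other neuropeptide precursors were also lower more often than higher. Of the 52 precursor genes listed beside Nts and Adcyap1, 11 were tested. Of these, 4 were called lower, 1 was called higher and 6 were not called. Among all genes tested, 6.25% were called lower, 4.35% higher and 10.6% either way. The list was chosen with earlier results of these data known, so these counts are a description. The 4 called lower include Gcg, which passed the filter through Control libraries alone. They also include Tac1, which reached the filter in 9 of 11 Control libraries but only 2 of 6 Tyrphostin libraries. The median log2 fold change of the 11 tested was -0.71, and -0.52 with total-count scaling. The rest of the precursor list, 41 genes, was under the count filter.

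Tac1, the precursor of substance P, fell from 30.1 CPM ± 33 (SD, n = 11) to 2.05 ± 0.697 (SD, n = 6), which is a log2 fold change of -3.21 (SE 0.66, adjusted p by edgeR = 0.00415). Its Control libraries were uneven, and 2 of 6 Tyrphostin libraries lay below all of them. Npy, the precursor of neuropeptide Y, fell from 247 CPM ± 161 (SD, n = 11) to 53.0 ± 38.7 (SD, n = 6), which is a log2 fold change of -2.21 (SE 0.42, adjusted p by edgeR = 0.00179), and 5 of 6 Tyrphostin libraries lay below every Control library.

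The calls outside the naming rule were looked up after their values were seen. Penk, the precursor of the enkephalins, had a log2 fold change of -1.40 (SE 0.33, adjusted p by edgeR = 0.00809), and Gcg, the glucagon precursor and a relative of Adcyap1, of -1.93 (SE 0.45, adjusted p by edgeR = 0.0066). Gcg averaged 4.37 CPM in Control libraries, and no Tyrphostin library reached the filter; with no filter its log2 fold change was -1.88 (SE 0.43, adjusted p by edgeR = 0.00158). Nppc, the precursor of C-type natriuretic peptide that keeps oocytes in meiotic arrest, was the gene called higher, with a log2 fold change of 0.96 (SE 0.24, adjusted p by edgeR = 0.0119). Nmu (-1.21 ± 0.44) and Chgb (0.23 ± 0.24, SE) were not called.

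**Figure D3:**
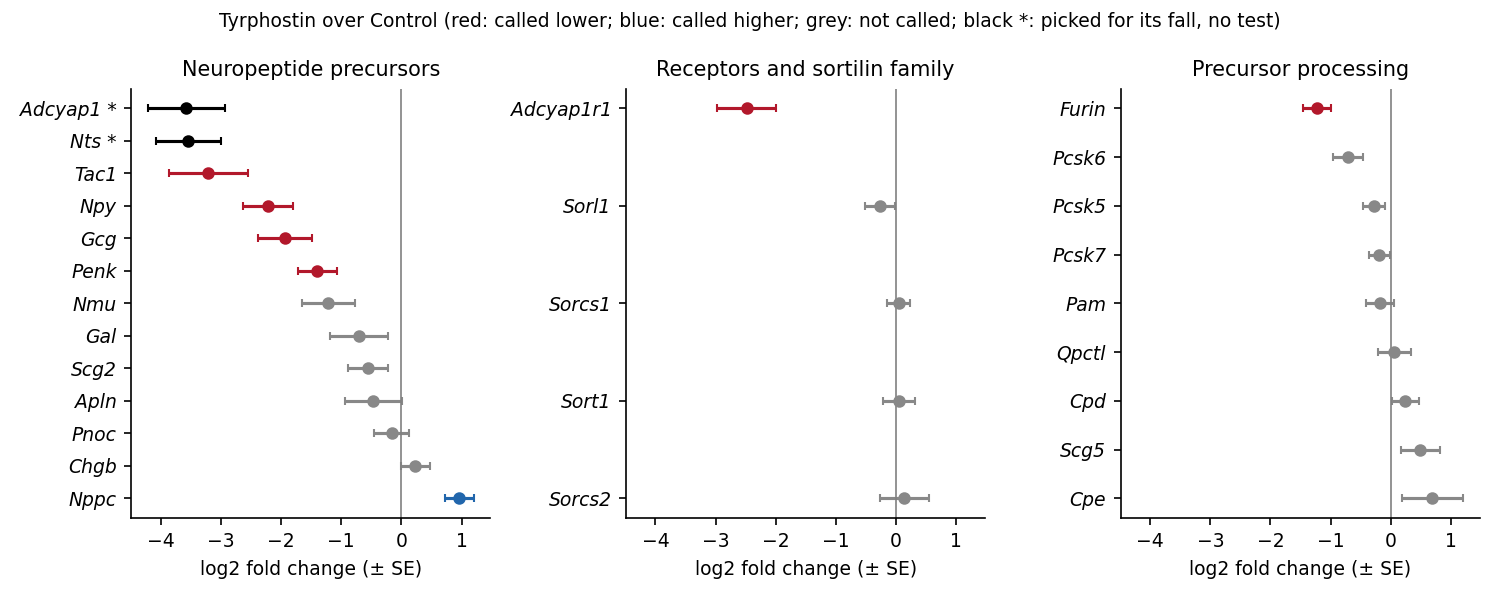
Log2 fold change of Tyrphostin over Control with its SE for the tested genes of 3 lists: neuropeptide precursors, receptors with the sortilin family, and precursor processing enzymes. Among the precursors Tac1, Npy, Gcg and Penk are called lower and Nppc higher; Nts and Adcyap1, in black, are shown without a test.

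By edgeR, enzymes that mature such precursors were called about as often as genes at large. Of 15 processing genes 9 were tested, 1 was called lower and 8 were not called, which is 11.1% against 10.6% of all genes tested, with a median log2 fold change of -0.18 (-0.02 with total-count scaling). DESeq2 and limma-voom each called 2 of the 9, and 2 had an unadjusted edgeR p under 0.05. Furin, a convertase of the secretory pathway, fell from 28.5 CPM ± 12 (SD, n = 11) to 11.7 ± 2.8 (SD, n = 6), which is a log2 fold change of -1.23 (SE 0.24, adjusted p by edgeR = 0.00122). The convertase Pcsk5 and the carboxypeptidase Cpe, the most abundant of the list, were not called, at log2 fold changes of -0.28 ± 0.18 and 0.69 ± 0.51 (SE).

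Of 10 peptide-degrading enzymes 7 were tested and 0 were called by edgeR (1 at an unadjusted p under 0.05, and 1 called by DESeq2 and by limma-voom), with a median of -0.15 (-0.01 with total-count scaling). Prep, an oligopeptidase that cuts after proline, and Ece1, the endothelin-converting enzyme, had log2 fold changes of -0.08 ± 0.16 and 0.15 ± 0.13 (SE). Of 17 genes for G proteins, adenylyl cyclases and phospholipase C beta 8 were tested and 0 were called by edgeR, DESeq2 or limma-voom (1 at an unadjusted edgeR p under 0.05), with a median of -0.09 that turned to 0.04 with total-count scaling. Over all genes tested 10.6% were called, which is fewer than 1 gene in lists of this length. Gnas, which encodes the stimulatory G protein subunit used by PAC1, had a log2 fold change of 0.03 ± 0.45 and Gna11 of 0.49 ± 0.18 (SE).

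Among factors that bind CRE, AP-1, C/EBP or progesterone receptor sites, 14 of 17 were tested, 3 were called lower, 1 was called higher and 10 were not called, against 6.25% lower and 4.35% higher over all genes tested. Their median was -0.14 (0.02 with total-count scaling). Fosl1 and Junb, which form AP-1 dimers, fell by 2.38 ± 0.29 and 1.48 ± 0.22 on the log2 scale (SE; edgeR adjusted p = 8.36e-06 and 9.03e-05). Jun, another AP-1 subunit, rose by 1.15 (SE 0.17, adjusted p by edgeR = 7.25e-05). Pgr, the progesterone receptor, fell by 1.17 (SE 0.30, adjusted p by edgeR = 0.0141). Atf4 and Crem were not called, at -0.13 ± 0.20 and -0.10 ± 0.20 (SE). The balance of all calls depended on scaling: 41.1% of called genes were higher with TMM and 64.4% with total counts (715 higher, 396 lower), as the median of all genes moved up by 0.15.

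Batch was then compared among the 11 Control libraries, a contrast that played no part in picking the genes. Neurotensin differed between batches. Nts was 1343, 1130, 929, 2351, 899 and 621 CPM in Control 1 to 6 of batch 1, and 76.6, 137, 718, 83.0 and 248 CPM in Control 7 to 11 of batch 2. Only Control 9 of batch 2 came within the range of batch 1. The log2 difference, batch 2 minus batch 1, was -2.25 (SE 0.57, adjusted p by edgeR = 0.0201), against 6.77% of 6680 genes called lower in batch 2, 7.26% called higher and 14% called in either direction. Without Control 9 it was -3.12. With no count filter the adjusted p was 0.101, and with Control libraries summed by the 5 sets in their library names the log2 difference was -1.94 (edgeR adjusted p = 0.281).

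Adcyap1 did not differ detectably between batches. It was 202, 91.4, 76.5, 465, 175 and 76.1 CPM in batch 1 and 46.5, 29.6, 126, 358 and 65.3 CPM in batch 2, ranges that overlapped. Its log2 difference was -0.47 (SE 0.65, adjusted p by edgeR = 0.681), and it turned to 0.061 without Control 4. Sort1 had a log2 difference of -0.03 (SE 0.30, adjusted p by edgeR = 0.964), with a sign that varied with the library left out and with scaling. Adcyap1r1 was under the filter of this fit; with no filter its log2 difference was -0.32 (SE 0.40, adjusted p by edgeR = 0.688).

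Whether Control libraries with more of one transcript had more of another was examined over the 6 pairs of genes, as log2 CPM after subtracting each batch mean. Nts and Adcyap1 correlated with Pearson r = 0.29 (exact permutation within batches, p = 0.487, adjusted p = 0.66) and Spearman rho = 0.41 (exact permutation p = 0.275, adjusted p = 0.671) over 11 libraries. Without Control 4 and Control 9, the libraries farthest from the median of Nts, r was -0.14. Control 10 was high for Adcyap1 and low for Nts, and without it r was 0.77 (exact permutation p = 0.00689, adjusted p = 0.0413). Omissions of single libraries were not planned for this correlation, and only 1 of the 11 gave an adjusted p under 0.05. The adjustment covers the 6 pairs and not the choice of library, so no correlation is read from that p. Within batch 1 alone r was 0.86 over 6 libraries (exact permutation p = 0.0264, adjusted p = 0.158) with rho = 0.83 (exact permutation p = 0.0583, adjusted p = 0.35), and r was 0.39 without Control 4 and Control 6. No correlation was computed in batch 2, since 6 libraries were set as the minimum and it has 5. There the library highest for Adcyap1, Control 10, was the second lowest for Nts, so the value from batch 1 does not speak for both batches. The relation thus rested on single libraries.

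**Figure D4:**
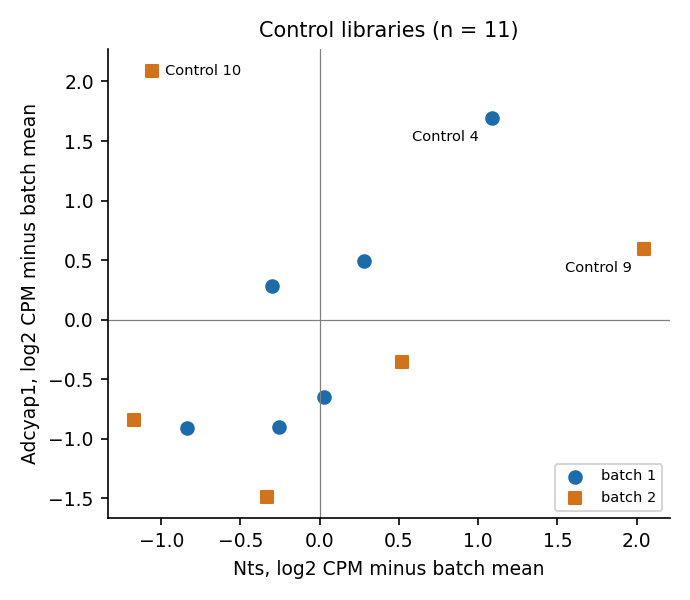
Adcyap1 against Nts in the 11 Control libraries, each as log2 CPM minus the mean of its batch (circles for batch 1, squares for batch 2). Control 4 is high for both genes and Control 10 is high for Adcyap1 and low for Nts.

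None of the 6 pairs passed over the 11 libraries. Nts and Sort1 had r = 0.61 (exact permutation p = 0.0875, adjusted p = 0.525) and rho = 0.53 (exact permutation p = 0.15, adjusted p = 0.671), with r = 0.53 without Control 4 and Control 9 and 0.04 within batch 1. Adcyap1 and its receptor Adcyap1r1 had r = 0.04 (exact permutation p = 0.899, adjusted p = 0.899) and rho = -0.2 (exact permutation p = 0.559, adjusted p = 0.671), with r = -0.35 without Control 4 and Control 10 and 0.11 within batch 1. The other 3 pairs had r from -0.25 to -0.19 and adjusted p of 0.66 (exact permutation).

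The genes whose log2 CPM most resembled each transcript over the 17 libraries were found by Pearson r, as a description; these points share the treatment and the batch. For Nts they were Il7, a cytokine (r = 0.957), Pparg, a lipid-sensing nuclear receptor (0.957), Ncoa7 (0.953), Sult1e1, the estrogen sulfotransferase (0.953), and Osbpl6 (0.948). For Adcyap1 they were Sdc1, the heparan sulfate proteoglycan syndecan (r = 0.91), Il23a, a cytokine subunit (0.894), Frmd6 (0.892), Bcat1 (0.865) and Maml2 (0.86). For Adcyap1r1 they were Fgl2 (r = 0.877), Krt23 (0.857), Rgl1 (0.835), Cyp4f16 (0.83) and Sdc1 (0.821), so that Sdc1 was near both the peptide and its receptor. Nts and Adcyap1 themselves correlated with r = 0.73, and Adcyap1 with Adcyap1r1 with r = 0.71. Many genes lay nearer: Adcyap1 was at rank 391 for Nts, and Nts at rank 111 and Adcyap1r1 at rank 141 for Adcyap1. Sort1 had no close match, with Asah2 highest at r = 0.677, then Zfp729a (0.64), Arhgap21 (0.632), Lipo3 (0.622) and Uba6 (0.611).

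The nearest genes changed once the mean of each treatment and batch group was removed. Nts then lay nearest to Wac (r = 0.913), Atp1b3, a sodium pump subunit (0.901), Cacybp (0.869), Prkar1a, a regulatory subunit of protein kinase A (0.866), and Mthfd2 (0.863). Adcyap1 lay nearest to Ssbp1 (r = 0.814), Rad17 (0.772), Med7 (0.764), Zbtb14 (0.76) and Cstf2t (0.75). For Adcyap1r1 the nearest were Cyp4f16 (r = 0.888), Isy1 (0.796), Samd5 (0.791), Exosc4 (0.751) and Card6 (0.748), and for Sort1 Tmem39b (0.792), Ssbp2 (0.732), Asah2 (0.724), Uba6 (0.724) and Eri3 (0.723). On this measure Nts and Adcyap1 correlated with r = 0.33 and Adcyap1 and Adcyap1r1 with r = 0.12. Adcyap1 was then at rank 1767 for Nts, and Nts at rank 1058 and Adcyap1r1 at rank 3055 for Adcyap1.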

How the data were processed

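RNA from cultured mouse follicles was purified on RNA-SPRI beads and made into Smart-Seq2 libraries, per the labels' protocols. Read counts by gene symbol, not normalised, were deposited by the authors as 1 table of 17 libraries, and the submitters' processing notes name STAR, HTSeq and GRCm38; versions, annotation and strand setting are not given in the sources used here. Columns were matched by the names in the labels. All 31 pairs of libraries within a group and batch had distinct counts (chi-square 11.8 to 84.1 times its degrees of freedom).

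Genes passing filterByExpr were fitted with edgeR 4.0.16 (R 4.3.3; TMM, robust quasi-likelihood F test, Benjamini-Hochberg over all genes tested, threshold 0.05), with batch as a term, within batches, and among Control libraries alone. The code was tested on simulated counts. SE is the log2 fold change divided by the square root of F, and intervals use 13 degrees of freedom. Correlations used a prior count of 2 and exact permutation over 86400 within-batch orders. Motifs were searched in RefSeq promoter windows; exon lengths came from GENCODE M21. Named genes were, from each list, up to 4 called genes of lowest p and 2 uncalled genes of highest expression, all receptors, and the 5 genes nearest each member by either measure, clone and model identifiers left out. Alternatives included DESeq2 1.42.0 and limma-voom (limma 3.58.1). The members and the lists were chosen with earlier results of these data known.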

Additional observations from a re-analysis of the deposited data

Results flagged for a closer look

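In each of Control batch 1, Control batch 2 and the 6 Tyrphostin libraries, every gene of the 4 was examined for an extreme library by Dixon's gap ratio. Of these 12 groups 2 held one. The ratio was taken on CPM and not on its log. A rate of 1 in 20 groups, or 0.6 here, holds only for normally distributed values, so no excess over it is read from this count. For Nts it was Control 9, at 718 CPM, while the remaining Control libraries of batch 2 held 76.6 to 248 CPM. Leaving Control 9 out gave Nts a log2 fold change between Tyrphostin and Control of -3.13 and a log2 difference between Control batches of -3.12. For Adcyap1 it was Control 4, at 465 CPM, while the remaining Control libraries of batch 1 held 76.1 to 202 CPM.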

How the results depend on the processing

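Over 11 alternatives and 17 omissions of a library, the log2 fold changes between Tyrphostin and Control ran from -3.78 to -3.13 for Nts and from -3.77 to -3.13 for Adcyap1. Adcyap1r1 kept an edgeR, DESeq2 or limma adjusted p under 0.05 in the 10 alternatives that tested it (2.88e-06 to 0.00729) and in 17 of 17 omissions (log2 fold changes -2.76 to -2.21). In the remaining alternative, a fit blocked by replicate number and without Control 7 to 11, it was under the filter. Most of these fits keep a count filter that it passes through Control libraries alone, so they are no independent support. The 4 other precursors called lower became 3 to 5; omitting Control 6, Control 7 and Tyrphostin 5 and the precursor settings were chosen after seeing the data. The 1018 genes called were 619 with no batch term, 1313 with DESeq2 and 708 to 1314 with 1 library left out. For Sort1 the log2 fold change was -0.045 without Control 6, Control 7 and Tyrphostin 5, and -0.11 to 0.16 with 1 library left out, reversing to -0.0032 without Control 7, -0.021 without Control 10 and -0.11 without Tyrphostin 1.

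Between Control batches, 937 genes called became 1473 with DESeq2, 100 with libraries summed by set, which leaves fewer samples, and 637 to 1025 with 1 library left out. The Nts difference was -2.27 with no filter (edgeR adjusted p = 0.101), -1.94 summed by set (edgeR adjusted p = 0.281) and -3.12 to -1.95 with 1 library left out, called in 11 of 11. The Adcyap1 difference ran from -1.44 to 0.061 and that of Sort1 from -0.16 to 0.14 with 1 library left out, and Sort1 turned to 0.15 with total counts and 0.035 summed by set. The correlation of Nts with Adcyap1 ran from 0.11 to 0.77. Where no cause is named, the cause was not tested.

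Control and Tyrphostin share replicate numbers 1 to 6, but numbers 4 to 6 fall in different batches. Correlations of same-numbered libraries were 0.03 to 0.32, and 2 of 6 Tyrphostin libraries correlated best with their own number. No chance level was computed, so these values do not show whether same-numbered libraries share more than a number. With a replicate block 624 genes were called, Nts was -3.42, Adcyap1 -3.49 and Sort1 0.05, and Adcyap1r1 was under the filter. Depth limits the receptors: Adcyap1r1 reached at most 49 counts.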
